A study of Homo sapiens with 6 samples.

Results

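The genes described here are 5 parent genes and 5 copies of them: EIF3C with EIF3CL, BZW1 with BZW1P2, FABP5 with FABP5P7, RAC1 with RAC1P2 and SRP9 with SRP9P1. They were listed by symbol and chosen by the counts of this same contrast, in which the copies were lower with FTO siRNA. All 10 were found among the 60483 gene identifiers of the count tables, and all 10 passed the filter on low counts. The question asked of them is whether parent plus copy stayed level when the copy's count was low. The RNA came from HepG2, an established human liver cancer line, grown in RPMI-1640 with 10% fetal bovine serum and used at passage 16 to 19. FTO is a demethylase of N6-methyladenosine, a methyl mark on RNA, and the study lowered it by transfection. The FTO siRNA group held 3 libraries, and the control siRNA group, transfected with a control siRNA, held 3 libraries as well. The labels do not say whether each library had a culture of its own, so any p-value rests on differences between these samples that may be technical only.

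A processed pseudogene arises when a spliced mRNA is copied into DNA and inserted elsewhere in the genome, which leaves a copy without the parent's introns. BZW1P2, FABP5P7, RAC1P2 and SRP9P1 are annotated as such copies, whereas EIF3CL is annotated as a protein-coding gene that keeps the exons of EIF3C. A sequencing read from a stretch that parent and copy share letter for letter carries no mark of which locus it came from, and a counting program must assign it to one of them, divide it or drop it. How the authors' counting treated such reads is not given in the sources used here, so the split of counts within each of the 5 pairs is uncertain. If such reads were dropped, the sum of parent and copy leaves them out as well.

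The sequences show how little separates the members of a pair. Transcripts were taken from GENCODE 29, on the build GRCh38, and only the chromosome of each locus is given, since the processing notes name another build. SRP9 lies on chromosome 1 and SRP9P1 on chromosome 10. The whole coding stretch of SRP9 is shown because the copy matches it at every base. Capitals in SRP9 mark the bases on both sides of its 2 exon junctions, which the single exon of SRP9P1 does not have.
SRP9: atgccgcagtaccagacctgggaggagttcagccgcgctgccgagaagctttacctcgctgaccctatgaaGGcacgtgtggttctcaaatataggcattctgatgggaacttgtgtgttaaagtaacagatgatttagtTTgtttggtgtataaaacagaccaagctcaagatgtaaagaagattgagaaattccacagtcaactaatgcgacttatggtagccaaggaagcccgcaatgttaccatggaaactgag
SRP9P1: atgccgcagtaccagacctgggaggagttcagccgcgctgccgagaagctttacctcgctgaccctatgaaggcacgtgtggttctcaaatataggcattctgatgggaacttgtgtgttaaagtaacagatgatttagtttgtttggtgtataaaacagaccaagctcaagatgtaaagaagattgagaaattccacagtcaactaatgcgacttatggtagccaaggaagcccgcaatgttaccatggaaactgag

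RAC1 lies on chromosome 7 and RAC1P2 on chromosome 4, and 300 bases of the RAC1 coding sequence, from coding base 194 to 493, are shown beside the matching stretch of the copy. This pair is shown because it is the one pseudogene pair whose aligned bases differ. Capitals mark the 3 bases that differ within the stretch, out of 4 over the whole copy.
RAC1: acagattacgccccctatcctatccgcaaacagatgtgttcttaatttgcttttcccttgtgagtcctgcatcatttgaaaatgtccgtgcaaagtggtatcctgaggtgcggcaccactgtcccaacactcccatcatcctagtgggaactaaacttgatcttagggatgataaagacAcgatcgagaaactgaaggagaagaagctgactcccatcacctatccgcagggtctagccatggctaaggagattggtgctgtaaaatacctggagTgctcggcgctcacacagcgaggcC
RAC1P2: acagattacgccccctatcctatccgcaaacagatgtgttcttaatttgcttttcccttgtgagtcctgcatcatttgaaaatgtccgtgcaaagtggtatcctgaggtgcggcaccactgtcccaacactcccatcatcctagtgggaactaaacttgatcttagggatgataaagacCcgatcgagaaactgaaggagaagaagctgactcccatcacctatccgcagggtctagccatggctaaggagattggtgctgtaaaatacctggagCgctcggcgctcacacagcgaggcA

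EIF3C and EIF3CL both lie on chromosome 16. A stretch from coding base 811 is shown because it holds the only difference found in the alignment of the transcripts, a run of GAG triplets that is 1 triplet longer in EIF3CL. Capitals mark the bases of EIF3CL with no partner in EIF3C, and which triplet of the run is the additional one cannot be told.
EIF3C: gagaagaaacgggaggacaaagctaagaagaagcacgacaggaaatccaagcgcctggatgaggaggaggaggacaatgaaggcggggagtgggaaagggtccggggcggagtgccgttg
EIF3CL: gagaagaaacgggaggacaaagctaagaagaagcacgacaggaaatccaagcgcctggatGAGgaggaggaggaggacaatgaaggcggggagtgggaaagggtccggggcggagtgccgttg

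Over the whole copies, 823 of 823 aligned bases of BZW1P2, 405 of 405 of FABP5P7 and 261 of 261 of SRP9P1 were identical to the parent transcript. RAC1P2 matched at 575 of 579 bases, an identity of 99.31%. EIF3CL matched at 3082 bases with 0 mismatches and 3 additional bases. The aligned stretches cross 20 exon junctions of EIF3C, 6 of BZW1, 5 of RAC1, 3 of FABP5 and 2 of SRP9. The 4 pseudogene copies each have 1 exon, while EIF3CL has 21 exons, as does the EIF3C transcript. Sharing was measured as the percent of all overlapping 50-base words of a transcript that also occur in its partner. By this measure 98.75% of EIF3CL, 99.61% of BZW1P2, 100% of FABP5P7, 100% of SRP9P1 and 73.4% of RAC1P2 occurred in the parent. In the other direction the shares were 96.83% of EIF3C, 54.35% of BZW1, 44.39% of FABP5, 17.11% of RAC1 and 14.81% of SRP9. The copies thus had almost no sequence absent from the parent, RAC1P2 apart, while every parent but EIF3C had long stretches of its own. Words of FABP5P7 also occurred in 8 other genes, which together held 81.74% of them, and no word of SRP9P1 or EIF3CL occurred in a gene other than its parent. The word measure, and the word lengths and classes built on it, were chosen after the data were seen.

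**Figure D1:**
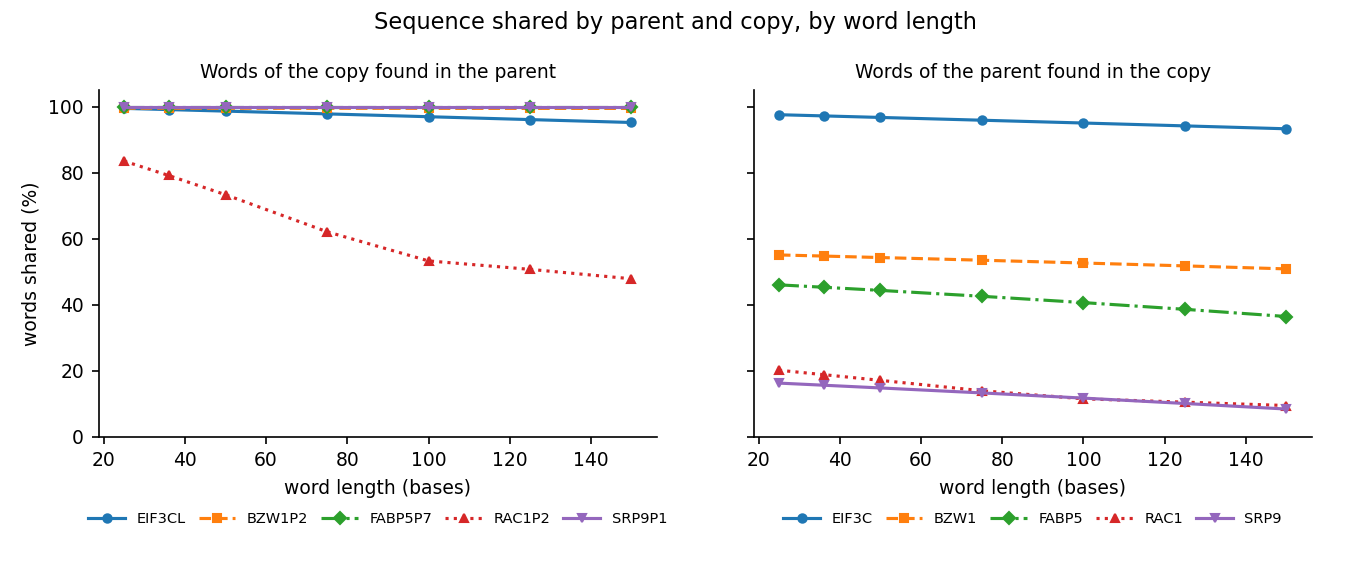
Percent of words shared within each pair (vertical axes) against word length in bases (horizontal axes), for words of the 5 copies found in the parent (left panel) and words of the 5 parents found in the copy (right panel); each line is 1 transcript of GENCODE 29. Longer words lower the share of RAC1P2 from 83.6% at 25 bases to 47.91% at 150 bases, and the other 4 copies stay above 95%.

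The libraries held between 15713279 and 18390953 counts, and 3 counts in a library correspond to 0.163 to 0.191 CPM (counts scaled to library size, here by TMM); this floor covers counting error only. Where CPM is given as mean ± SD, n = 3 libraries in each group. FTO itself had 11.2, 14.5 and 5.21 CPM in the FTO siRNA libraries, against 40.8, 37.96 and 38.8 CPM in the control siRNA libraries, so the targeted gene was lower in every library labelled FTO siRNA. Its log2 fold change was -1.93 ± 0.32 (edgeR quasi-likelihood test, adjusted p = 0.009323). The test covered 15025 genes, of which 7.53% were called higher and 3.83% called lower, and the groups did not overlap for 36.5%. On the second principal component, which held 25.73% of the variance, FTO siRNA 3 scored 52.73, against -40.07 and -22.71 for libraries 1 and 2 of its group. All 10 hepatocyte markers, ALB and AFP among them, were measured and 0 passed the test, with summed levels of 16060 to 28320 CPM with FTO siRNA and 23160 to 33280 CPM with control siRNA. Their median log2 fold change was -0.3, beside 0.04 over all genes tested. APOB (-1.40 ± 0.41) and HNF4A (-0.23 ± 0.14) had every FTO siRNA value below every control value. APOA2 went the other way (0.80 ± 0.29), with groups that overlapped. These names were picked after their values were seen. Some markers of other cell types were called higher with FTO siRNA. Of the immune markers this held for 4 of 6 tested (summed level 77.5 to 110 CPM, against 51.9 to 102 CPM with control siRNA). Most of that sum was LYZ, named after its values were seen, at means of 71.7 CPM with FTO siRNA and 72.8 CPM with control siRNA, not called. The 4 called had means of 1.17 to 12.1 CPM with FTO siRNA. Of the fibroblast markers 3 of 6 tested were called higher (275 to 612.5 CPM, against 116 to 202 CPM). Among these 3, TAGLN, also named after its values were seen, overlapped between groups. Of the markers of other cell lines 2 of 4 tested rose, and of the endothelial markers 0 of 1. At 0 in every control siRNA library were the immune marker MS4A1, the fibroblast markers DCN and THY1, the endothelial markers VWF, KDR and TEK and the other-line markers KRT5 and KRT14; KDR was also at 0 in every FTO siRNA library, and the part of these markers in the results below was not tested.

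All 5 copies and 1 of the 5 parents, EIF3C, were lower with FTO siRNA past the threshold of the test (adjusted p under 0.05 over all genes), beside the 3.83% of all genes called lower; nothing is read from this, since the contrast chose the members. The same 6 genes had every FTO siRNA value below every control value, beside 17.4% of all genes. No parent was called higher. The copies had 760 counts in all with FTO siRNA, against 10598 with control siRNA. In bulk RNA, less RNA per cell and fewer cells of a kind cannot be told apart. The genes are taken below by what the parent protein does, first translation, then protein targeting, then signalling and lipid binding.

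EIF3C (ENSG00000184110.13) encodes a core subunit of eIF3, the complex that brings the small ribosomal subunit to mRNAs at the start of translation. It had 337, 391 and 279 counts in FTO siRNA libraries 1, 2 and 3, against 755, 742 and 947 counts in control siRNA libraries 1, 2 and 3. The groups did not overlap, and the lowest value belonged to FTO siRNA 3. The level was 19.8 ± 5.04 CPM with FTO siRNA and 50.1 ± 6.29 CPM with control siRNA, a log2 fold change of -1.34 ± 0.21 (95% interval -1.83 to -0.85). EIF3C was the only parent whose groups did not overlap with FTO siRNA below.

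EIF3CL (ENSG00000205609.11), the near-identical neighbour of EIF3C, had 129, 149 and 77 counts in the FTO siRNA libraries, against 1868, 1979 and 2308 counts in the control siRNA libraries. All FTO siRNA values were far below the controls, and FTO siRNA 3 again held the lowest. The level of 7.04 ± 2.76 CPM with FTO siRNA was 5.59% of the 126 ± 11.5 CPM with control siRNA, and the log2 fold change was -4.17 ± 0.30 (-4.85 to -3.48). Per kilobase of transcript EIF3CL stood at 2.28 CPM with FTO siRNA, against 40.9 CPM with control siRNA, and EIF3C at 6.28 CPM with FTO siRNA, against 15.9 CPM with control siRNA. EIF3CL was thus the lower of the pair with FTO siRNA and the higher of the pair with control siRNA on this scale.

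The sum of the counts given to EIF3C and EIF3CL did not stay level. It was 466, 540 and 356 counts with FTO siRNA, against 2623, 2721 and 3255 counts with control siRNA. The groups were far apart, with every control sum above every FTO siRNA sum. The summed level was 26.8 ± 7.79 CPM with FTO siRNA and 176 ± 17.6 CPM with control siRNA, or 6.57-fold higher in control, and its log2 fold change was -2.72 ± 0.23 (-3.25 to -2.19). EIF3CL accounted for -119 CPM of the difference of -149 CPM and EIF3C for -30.3 CPM. This was the one sum of the 5 called lower and 0 were called higher, where 3.79% of all rows were called lower and 7.52% higher in the table with summed pairs. Nothing is read from this call. The copies were chosen for being low in this contrast, and EIF3CL held 71.6% of the counts of its pair with control siRNA.

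Of the 12 other eIF3 subunits, 0 passed the test in either direction, and their median log2 fold change was 0.13, beside 0.04 over all genes tested. Those with the highest levels were EIF3B at 582 ± 190 CPM with FTO siRNA and 605.5 ± 41.6 CPM with control siRNA, and EIF3A at 502 ± 62.9 CPM with FTO siRNA and 627 ± 23.1 CPM with control siRNA. EIF3D and EIF3I followed, with log2 fold changes of 0.27 ± 0.15 and 0.22 ± 0.23.

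BZW1 (ENSG00000082153.16, chromosome 2) encodes an eIF5 mimic protein, which binds eIF2 and acts on the choice of start codons. It had 5284, 5297 and 4987 counts with FTO siRNA, against 4548, 5222 and 4841 counts with control siRNA. The groups overlapped. The level was 303 ± 41.9 CPM with FTO siRNA and 299.5 ± 16.3 CPM with control siRNA, with a log2 fold change of 0.02 ± 0.16 (-0.34 to 0.37).

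BZW1P2 (ENSG00000198406.7, chromosome 3) had 15, 24 and 19 counts with FTO siRNA, against 425, 449 and 384 counts with control siRNA. All 3 FTO siRNA values were far below the controls, and within each group the values lay close together. The level was 1.13 ± 0.308 CPM with FTO siRNA, 4.37% of the 25.8 ± 2.30 CPM with control siRNA, and the log2 fold change was -4.52 ± 0.24 (-5.06 to -3.97), the lowest of the 10 members. The locus lies inside LSAMP on the same strand, a cell adhesion gene with 14, 17 and 16 counts with FTO siRNA, against 2, 2 and 8 counts with control siRNA. LSAMP was not called and its counts ran opposite to those of BZW1P2, but its control values of 2 counts were under the floor of 3 counts. Groups without overlap and with FTO siRNA above, as in LSAMP, were found for 19.2% of all genes tested.

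The sum of BZW1 and BZW1P2 was 5299, 5321 and 5006 counts with FTO siRNA, against 4973, 5671 and 5225 counts with control siRNA, and the groups overlapped. The summed level was 304 ± 42 CPM with FTO siRNA and 325 ± 17.5 CPM with control siRNA, a log2 fold change of -0.10 ± 0.16 (-0.46 to 0.26). The copy differed by -24.7 CPM, less than the SD of BZW1 among the FTO siRNA libraries, and the parent by 3.62 CPM. A difference of the copy's size was thus not detectable in BZW1 at this spread. Of 6 relatives and partners, 0 passed the test. With the highest levels were EIF5B at 474 ± 88 CPM with FTO siRNA and 425 ± 30.5 CPM with control siRNA, and EIF5, the factor BZW1 resembles, at 390 ± 106 CPM with FTO siRNA and 483 ± 37.2 CPM with control siRNA. EIF2S2 and EIF2S3, subunits of eIF2, had log2 fold changes of 0.12 ± 0.19 and -0.10 ± 0.13.

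SRP9 (ENSG00000143742.11) encodes a protein of the signal recognition particle, which guides ribosomes making secreted proteins to the endoplasmic reticulum; together with SRP14 it binds the Alu domain of the particle's RNA. It had 4211, 3560 and 4336 counts with FTO siRNA, against 3847, 4040 and 3873 counts with control siRNA. The groups overlapped, with FTO siRNA 2 the lowest library. The level was 234 ± 23.3 CPM with FTO siRNA and 241 ± 6.53 CPM with control siRNA, a log2 fold change of -0.04 ± 0.14 (-0.36 to 0.28).

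SRP9P1 (ENSG00000180581.7) had 18, 21 and 20 counts with FTO siRNA, against 229, 312 and 241 counts with control siRNA. The groups did not overlap, and control siRNA 2 was the highest library. The level was 1.15 ± 0.14 CPM with FTO siRNA, 7.15% of the 16.0 ± 2.59 CPM with control siRNA, and the log2 fold change was -3.80 ± 0.24 (-4.35 to -3.25). SRP9P1 lies inside TNKS2, a poly-ADP-ribosyltransferase gene of the opposite strand, whose log2 fold change was -0.23 ± 0.22 and which was not called.

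The sum of SRP9 and SRP9P1 was 4229, 3581 and 4356 counts with FTO siRNA, against 4076, 4352 and 4114 counts with control siRNA. The groups overlapped. The summed level was 235 ± 23.2 CPM with FTO siRNA and 257 ± 8.43 CPM with control siRNA, a log2 fold change of -0.13 ± 0.14 (-0.45 to 0.19). The copy differed by -14.9 CPM, again less than the SD of the parent among the FTO siRNA libraries, and the parent by -7.10 CPM. SRP9 was the one parent of a pseudogene whose mean moved the same way as its copy, by less than its spread. Of the other 7 genes of the particle and its receptor, 0 passed the test. SRP14 had 232.5 ± 50.1 CPM with FTO siRNA and 229 ± 7.47 CPM with control siRNA. The receptor subunit SRPRA had 245 ± 41.2 CPM with FTO siRNA and 195 ± 3.36 CPM with control siRNA, and SRP72 and SRP68, which bind the RNA of the particle, had log2 fold changes of -0.26 ± 0.14 and -0.02 ± 0.14.

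RAC1 (ENSG00000136238.16) encodes a small GTPase that drives actin assembly at the cell edge. It had 12630, 9306 and 12111 counts with FTO siRNA, against 6294, 7212 and 7932 counts with control siRNA. Every FTO siRNA library lay above every control library. The level was 659 ± 110 CPM with FTO siRNA and 439 ± 40.1 CPM with control siRNA, with a log2 fold change of 0.59 ± 0.18 (0.18 to 0.99), which did not pass the adjusted threshold. Without FTO siRNA 3 the log2 fold change was 0.60 and passed it. Groups that did not overlap, with FTO siRNA above, were found for 19.2% of all genes tested.

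RAC1P2 (ENSG00000249936.3) had 70, 79 and 75 counts with FTO siRNA, against 436, 501 and 557 counts with control siRNA. The FTO siRNA values lay close together and all below the controls. The level was 4.35 ± 0.524 CPM with FTO siRNA, 14.2% of the 30.6 ± 3.00 CPM with control siRNA, and the log2 fold change was -2.82 ± 0.18 (-3.24 to -2.39). RAC1P2 was the copy with the smallest change and also the one with the lowest percent of its words in the parent. Nothing is read from this, since the copies were chosen by their change in this contrast. No annotated gene overlapped it.

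The sum of RAC1 and RAC1P2 was 12700, 9385 and 12186 counts with FTO siRNA, against 6730, 7713 and 8489 counts with control siRNA. Every FTO siRNA sum was above every control sum. The summed level was 663 ± 110 CPM with FTO siRNA and 470 ± 43.1 CPM with control siRNA, a log2 fold change of 0.50 ± 0.18 (0.09 to 0.91), which was not called. Without FTO siRNA 3 it was 0.51 and passed the threshold. The parent differed by 220 CPM, many times the -26.2 CPM of the copy, so the sum followed RAC1. Of 8 relatives, 2 rose, RHOC and RAC2. RHOC, a GTPase of cell migration, was at 228 ± 55.5 CPM with FTO siRNA and 129 ± 17.2 CPM with control siRNA (log2 fold change 0.82 ± 0.20). RAC2, the RAC of blood cells, named because it passed and so after its values were seen, was at 1.84 ± 0.34 CPM with FTO siRNA and 0.122 ± 0.122 CPM with control siRNA. RHOA, CDC42 and RHOB did not pass, with log2 fold changes of -0.26 ± 0.21, 0.10 ± 0.16 and 1.12 ± 0.37.

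FABP5 (ENSG00000164687.9, chromosome 8) encodes a carrier of long-chain fatty acids first known from skin. It had 2971, 2143 and 1176 counts with FTO siRNA, against 1136, 989 and 1035 counts with control siRNA. FTO siRNA 1 and 2 stood above the controls in CPM, at 184 and 132 CPM, while FTO siRNA 3, at 60.1 CPM, lay just below the lowest control of 60.3 CPM. The level was 125.5 ± 62.3 CPM with FTO siRNA and 64.9 ± 6.22 CPM with control siRNA, a log2 fold change of 0.95 ± 0.34 (0.17 to 1.73) that did not pass the adjusted threshold. Without FTO siRNA 3 it was 1.26 ± 0.15 and passed, and without FTO siRNA 1 it was 0.55 ± 0.30 and did not.

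FABP5P7 (ENSG00000234964.4, chromosome 11) had 24, 24 and 16 counts with FTO siRNA, against 315, 296 and 298 counts with control siRNA. The controls lay within a narrow range, and all FTO siRNA values were far below it. The level was 1.26 ± 0.385 CPM with FTO siRNA, 6.77% of the 18.7 ± 1.12 CPM with control siRNA, and the log2 fold change was -3.90 ± 0.26 (-4.49 to -3.31). FABP5P7 lies inside STX3, a membrane fusion gene of the opposite strand, which had a log2 fold change of 0.72 ± 0.20, not called. STX3 counts, 4891, 5326 and 4334 with FTO siRNA and 2450, 2561 and 3455 with control siRNA, ran opposite to those of FABP5P7. The groups of STX3 did not overlap, with FTO siRNA above, as for 19.2% of all genes tested.

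The sum of FABP5 and FABP5P7 was 2995, 2167 and 1192 counts with FTO siRNA, against 1451, 1285 and 1333 counts with control siRNA. FTO siRNA 1 and 2 were above all controls and FTO siRNA 3 below all of them. The summed level was 127 ± 62.7 CPM with FTO siRNA and 83.6 ± 7.33 CPM with control siRNA, a log2 fold change of 0.60 ± 0.34 (-0.17 to 1.37). Without FTO siRNA 3 it was 0.91 and passed the threshold, and without FTO siRNA 1 it was 0.21, so this sum rested on single libraries. The copy differed by -17.4 CPM and the parent by 60.6 CPM. Of 13 relatives that bind lipids, FABP5 included, 5 were tested. Among the other 4, FABP3 and CRABP2 rose: FABP3, the heart form, was at 11.03 ± 1.36 CPM with FTO siRNA and 5.41 ± 0.739 CPM with control siRNA, and CRABP2, a carrier of retinoic acid, at 9.05 ± 3.14 CPM with FTO siRNA and 0.389 ± 0.15 CPM with control siRNA. FABP1, the liver form, had 131 ± 99.9 CPM with FTO siRNA and 107 ± 29.8 CPM with control siRNA and did not pass. The keratinocyte and macrophage markers chosen to go with FABP5 summed to 16.8 to 19.5 CPM with FTO siRNA and 12.4 to 13.9 CPM with control siRNA. Nearly all of this was the keratinocyte gene KRT10, at 17.6 ± 1.40 CPM with FTO siRNA and 13.1 ± 0.798 CPM with control siRNA, which was not called. IVL was at 0 in both groups and KRT1 at 0 with control siRNA. The macrophage gene MARCO had 8, 5 and 10 counts with FTO siRNA, against 0, 1 and 2 with control siRNA, and CSF1R 2, 2 and 13 with FTO siRNA, against 1, 0 and 0. CD68 had 2, 5 and 1 counts with FTO siRNA, against 0, 1 and 1. MARCO and CSF1R did not overlap between groups, with FTO siRNA above, as did 19.2% of all genes tested. Neither passed the filter on low counts, and the closest CSF1R values, 2 and 1 counts, were under the floor of 3 counts. The part of these markers in the values of FABP5 was not tested.

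**Figure D2:**
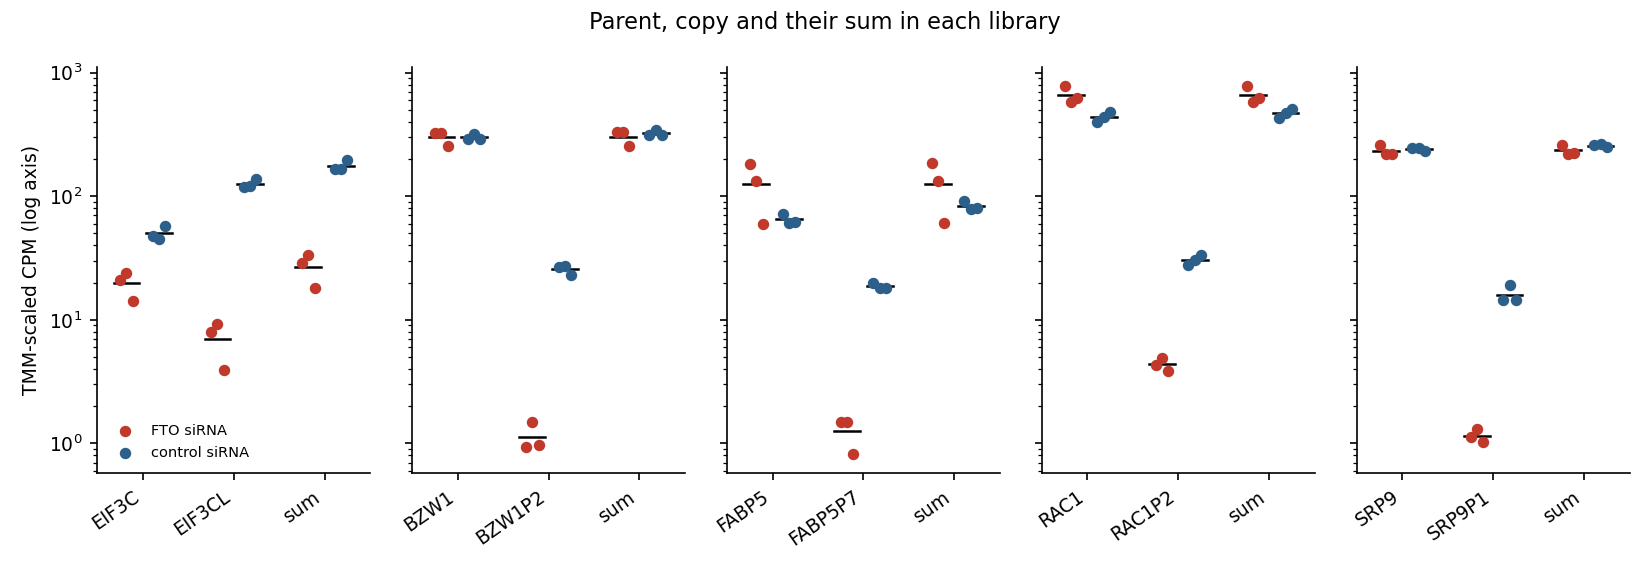
TMM-scaled CPM on a log axis for parent, copy and their sum in each of the 5 pairs (1 panel each); red points are the 3 FTO siRNA libraries, blue points the 3 control siRNA libraries, and black bars group means. The red points of every copy lie below the blue ones, the sums of BZW1, SRP9 and FABP5 overlap between groups, the RAC1 sum is higher with FTO siRNA and the EIF3C sum lower (26.8 against 176 CPM).

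**Figure D3:**
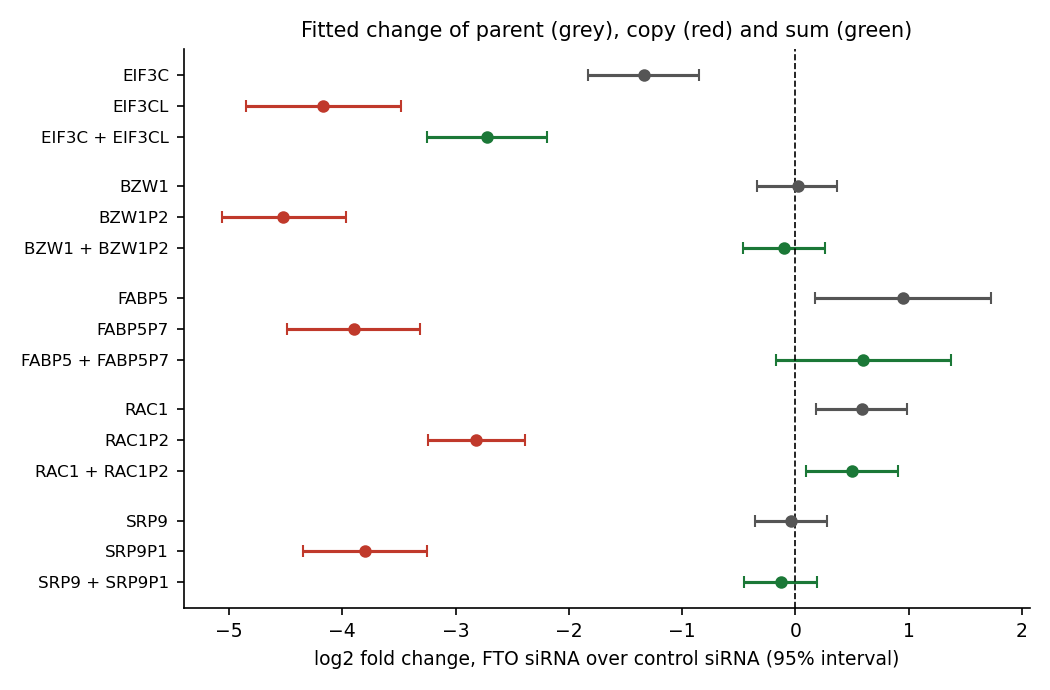
Log2 fold change, FTO siRNA over control siRNA (horizontal axis), of parent, copy and sum for each pair; points are edgeR estimates, bars 95% intervals, and the dashed line marks no change. The 5 copies lie between -4.52 and -2.82, and the interval of the sum includes 0 for BZW1, FABP5 and SRP9, lies above 0 for RAC1 (0.09 to 0.91) and below 0 for EIF3C (-3.25 to -2.19).

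Shares within a pair do not depend on scaling between libraries. EIF3CL made up 27.7%, 27.6% and 21.6% of the counts of its pair in the FTO siRNA libraries, against 71.2%, 72.7% and 70.9% in the control siRNA libraries. The group means were 25.6 ± 3.47% with FTO siRNA and 71.6 ± 0.976% with control siRNA. The pseudogene copies were minor members of their pairs in both groups. BZW1P2 held 0.371 ± 0.0843% of its pair with FTO siRNA and 7.94 ± 0.599% with control siRNA. FABP5P7 held 1.08 ± 0.271% with FTO siRNA and 22.4 ± 0.663% with control siRNA. RAC1P2 held 0.67 ± 0.153% with FTO siRNA and 6.51 ± 0.0438% with control siRNA, and SRP9P1 0.49 ± 0.0848% with FTO siRNA and 6.22 ± 0.835% with control siRNA. The shares did not overlap between groups for any pair. The exact binomial 95% intervals of single libraries were also apart, the closest being those of SRP9P1, 0.363% to 0.895% in FTO siRNA 2 and 4.93% to 6.37% in control siRNA 1.

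**Figure D4:**
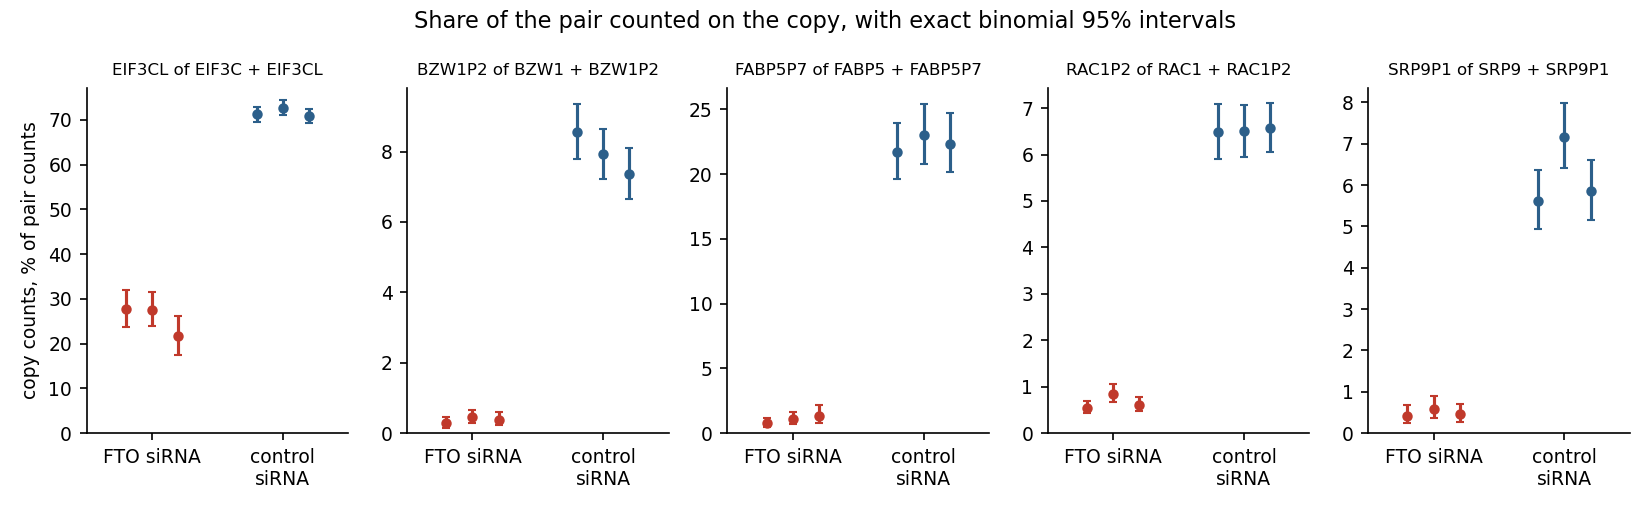
Copy counts as a percent of parent plus copy counts (vertical axes, each from 0) in each library, FTO siRNA left and control siRNA right, 1 panel per pair; points are libraries and bars exact binomial 95% intervals, which cover counting error only. EIF3CL averages 25.6% with FTO siRNA and 71.6% with control siRNA, and the 4 pseudogene copies stay at or under 1.34% with FTO siRNA and at or above 5.62% with control siRNA.

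Levels of the 10 genes can be ordered only per kilobase of transcript. The length used is that of the transcript aligned for each gene, while the counts are for the whole gene, so the order depends on this choice. With FTO siRNA the order began with RAC1 (284 ± 47.2 CPM per kilobase), BZW1 (206 ± 28.4), SRP9 (158 ± 15.7) and FABP5 (147.5 ± 73.2), and BZW1, SRP9 and FABP5 overlapped as neighbours. The other 6 followed far below, from RAC1P2 at 7.51 ± 0.905 through EIF3C, SRP9P1, FABP5P7 and EIF3CL to BZW1P2 at 1.37 ± 0.373 CPM per kilobase. Among these neighbours only SRP9P1 and FABP5P7 did not overlap. With control siRNA the order was BZW1 (203 ± 11), RAC1 (189 ± 17.2), SRP9 (163 ± 4.41) and FABP5 (76.3 ± 7.31), then SRP9P1 (61.4 ± 9.91), RAC1P2 (52.8 ± 5.19), FABP5P7 (46.1 ± 2.78), EIF3CL (40.9 ± 3.72), BZW1P2 (31.3 ± 2.78) and EIF3C (15.9 ± 2.00). Neighbours from FABP5 to EIF3CL overlapped, as did BZW1 and RAC1. All 5 copies were above EIF3C with control siRNA on this scale, whereas with FTO siRNA only RAC1P2 had a higher mean.

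The coefficient of variation was larger with FTO siRNA for 9 of 10 members, the exception being SRP9P1, and for 78.4% of all genes tested. Nothing particular to the members is read from this. BZW1P2, FABP5P7 and SRP9P1 had only 15 to 24 counts with FTO siRNA, where counting error is larger than at their control counts. FTO siRNA 3 held the lowest CPM of its group for 7 of 10 members, beside 40.8% of all genes, and it also held the lowest FTO level. The part of this library in the results was not tested beyond the values without it.

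Other annotated copies of the same parents were scarce. By symbol BZW1 had 1 further copy, FABP5 12 and RAC1 8, and EIF3C and SRP9 none. Of the FABP5 copies 6 had no count in any library, as did 7 of the RAC1 copies. Together the 21 had 40, 25 and 11 counts with FTO siRNA, against 19, 16 and 11 counts with control siRNA, and none passed the filter on low counts. FABP5P1, the highest of them, had 18, 16 and 2 counts with FTO siRNA, against 7, 7 and 5 with control siRNA, and FABP5P2 had 16, 6 and 3 with FTO siRNA, against 9, 6 and 4. These 21 copies were less like their parents than the listed ones, with at most 98.54% identity and at most 56.63% of 50-base words in the parent (both FABP5P1). Adding them to the sums left the log2 fold changes at -0.10 for BZW1, 0.60 for FABP5 and 0.50 for RAC1.

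The same measures were then taken over the other 355 copies in the table, each named as a parent symbol followed by P and a number, where both genes were tested. Of these copies 12.7% were called lower and 9.3% higher with FTO siRNA, beside 3.83% and 7.53% of all genes. Arranged by likeness to the parent, the called copies differed in direction. Among copies with under 30% of words in the parent, 7 of 199 were lower and 22 higher. Among those with 30 to under 70%, 24 of 116 were lower and 10 higher, with 70 to under 90% 10 of 30 were lower and 1 higher, and with at least 90% 4 of 10 were lower and 0 higher. Of the 45 copies called lower, the parent was called lower in 4, higher in 1 and not called in 40. The share of lower copies thus was larger where the likeness was larger, and these counts are a description, since the classes were set after the data were seen. The lowest log2 fold change of the 355, -4.70, belonged to BMS1P17, named after its values were seen. It had 0% of its words in the parent, with 1, 1 and 0 counts with FTO siRNA, against 24, 17 and 17 with control siRNA. Copies were matched to parents by symbol alone, and 1 of them aligned over only 0.66% of its length.

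The 10 other copies with at least 90% of their words in the parent are named here after their values were seen. TECRP1, a copy of the gene of a fatty acid elongation enzyme, had 17, 19 and 10 counts with FTO siRNA, against 224, 205 and 232 counts with control siRNA (log2 fold change -3.91). IKBKGP1, a copy of the NF-kB regulator gene IKBKG, had 4, 7 and 7 counts with FTO siRNA, against 54, 50 and 63 with control siRNA (-3.28). Both resembled the listed copies in size of change, and both parents, TECR (0.15) and IKBKG (-0.07), were not called. The ribosomal protein copies RPL41P1 and RPL21P16 were lower by less, with log2 fold changes of -1.61 and -1.55. PSMC1P1, PHC1P1, TCAF1P1, H3F3AP4, RPL41P5 and RPS28P7 were not called, and their log2 fold changes lay between -1.24 and 0.41. H3F3AP4, a copy of a histone H3.3 gene identical to its parent along its whole length, had 121, 131 and 82 counts with FTO siRNA, against 134, 139 and 123 with control siRNA. A copy identical to its parent was therefore not always low with FTO siRNA.

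**Figure D5:**
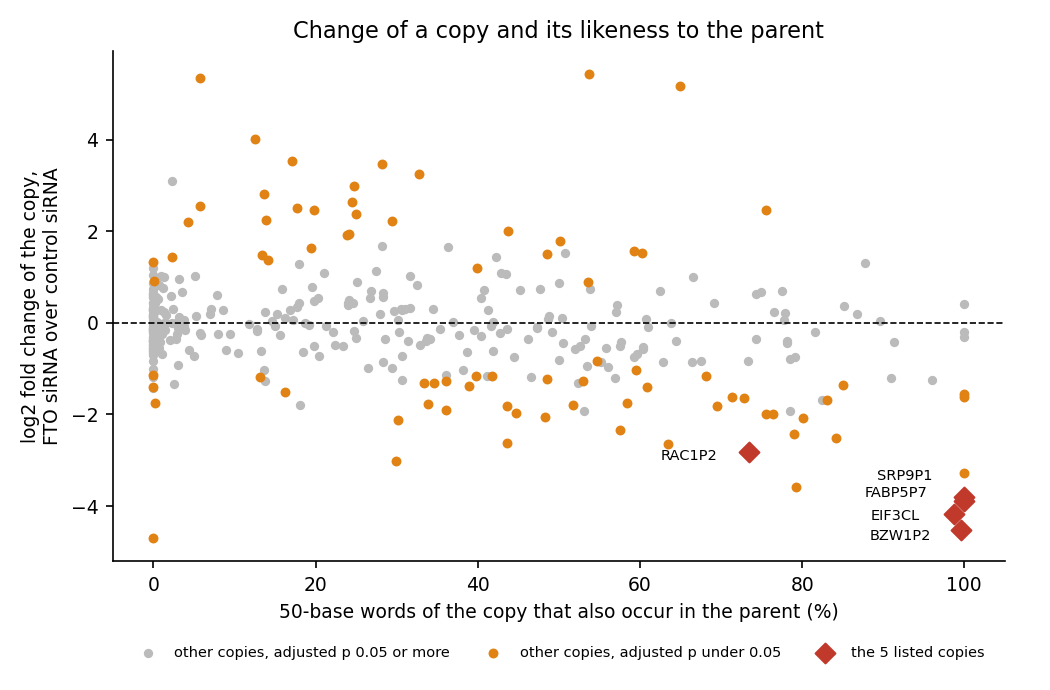
Log2 fold change of a copy, FTO siRNA over control siRNA (vertical axis), against the percent of its 50-base words that occur in the parent (horizontal axis), for the 5 listed copies (red diamonds) and 355 other copies (orange where the adjusted p was under 0.05, grey otherwise). Called copies with at least 70% of words in the parent lie below 0 with 1 exception, while those with under 30% lie mostly above 0, and the listed copies, chosen for this contrast, lie at the lower right.

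Processed pseudogenes as a class took 0.263%, 0.236% and 0.214% of counts in the FTO siRNA libraries, against 0.298%, 0.285% and 0.293% in the control siRNA libraries. The groups did not overlap. When every parent outside the 5 listed was summed with all of its copies, 60 of 1490 families with a tested sum were called higher and 55 lower with FTO siRNA. Among all 15025 genes tested, 1132 (7.53%) were called higher and 575 (3.83%) lower. By rank, 4 of the listed copies (BZW1P2, EIF3CL, FABP5P7 and SRP9P1) were at positions 5, 6, 9 and 11 from the lowest log2 fold change among 15025 genes, and RAC1P2 at 30; a fall of at least 4-fold past the threshold was found for 61 genes, or 0.406%.

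Likeness of pattern was taken as Pearson's r of log2 CPM over the 6 libraries against 12449 other genes, and is a description, since the 6 points share their libraries and fall into 2 groups. TECRP1 was nearest to EIF3CL (r = 0.9993) and to FABP5P7 (r = 0.9989), followed by HMGB1P6 (r = 0.998) and TMEM183B (r = 0.9983), all of them processed pseudogenes. NEMF (r = 0.9985) and GTF2IP1 (r = 0.9984), a pseudogene of GTF2I, were nearest to BZW1P2. CDH19 and DEPDC1 (both r = 0.9986) were nearest to RAC1P2, and DEPDC1 (r = 0.9983) and TUBGCP6 (r = 0.9977) to SRP9P1. The value of r does not reflect the size of a change. Log2 fold changes were -0.47 for NEMF, -0.53 for CDH19, -0.61 for TUBGCP6 and -0.77 for DEPDC1. They were -1.27 for HMGB1P6, -1.69 for GTF2IP1, -2.89 for TMEM183B and -3.91 for TECRP1, and those of the 5 copies lay between -4.52 and -2.82. Between 16 and 22 genes exceeded an r of 0.99 with each copy.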

How the data were processed

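RNA sequencing of HepG2 cells was analysed in 6 libraries, 3 with FTO siRNA and 3 with control siRNA, grouped and numbered by their labels. The authors deposited raw read counts per Ensembl gene for each library; the submitters' processing notes list TopHat, TopHat2 2.0.11 and HTSeq beside the builds hg19 and GRCh37, with no role for any of them. The sources used here do not give read length, strand or the treatment of reads that match several genes, so counts of near-identical, overlapping and antisense genes are uncertain. Of 60483 identifiers 56753 matched GENCODE 29, which gave symbols, types, chromosomes and transcripts, and 37168 also matched by version. All 37 mitochondrial genes were at 0.

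Low counts were removed with edgeR's filterByExpr (by group), TMM set the scaling, and the model was fitted with glmQLFit (legacy=FALSE) and glmQLFTest of edgeR 4.0.16 in R 4.3.3, two-sided, with Benjamini-Hochberg adjustment over 15025 genes and a threshold of 0.05. Sums of parent and copy came from a second fit in which each pair's 2 rows were replaced by their sum. CPM values are TMM-scaled, a standard error is the log2 fold change over the square root of F, and log2 CPM uses a prior count of 2. Copy shares have exact binomial 95% intervals, which cover counting error only. For each pair the parent transcript sharing most words with the copy was aligned locally and compared by words.

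The members and lists were chosen with earlier results of these data known, and the members' values are a description without a test. Named are the 10 members, FTO, genes that overlap a member, at most 3 further copies of a parent, up to 4 genes per family list with the highest mean CPM, marker genes at 0 in a group, the markers that go with FABP5, and the 2 genes with the highest r to each copy among genes whose average log2 CPM was 1 or more; names outside this rule are marked. Every pair of libraries differed by more than sampling noise (chi-square over degrees of freedom 8.56 or more). The scaling was replaced by RLE, by upper quartile factors or by library totals alone, and the filter by none or by 1 CPM or more in 3 or more libraries. Further alternatives were limma-voom (limma 3.58.1), DESeq2 1.42.0, edgeR's older quasi-likelihood method, the replicate number as a block, all annotated copies, pooled shares and each library left out. Tables were joined with Python 3.11.15.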

Additional observations from a re-analysis of the deposited data

How the results depend on the processing

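The 5 copies and EIF3C kept their direction and their side of the threshold under every alternative run. The sums of EIF3C and RAC1 kept their direction throughout, between -2.91 and -2.53 and between 0.34 and 0.58 with 1 library left out. In the same fits the sums lay between -0.17 and -0.01 for BZW1, 0.21 and 0.91 for FABP5 and -0.23 and -0.09 for SRP9. BZW1 itself lay near 0 on either side (-0.07 to 0.10), and without a filter the median over all genes was 0.182, against 0.039 in the fit reported. DESeq2 called FABP5 (0.92) and RAC1 (0.56), as did leaving out FTO siRNA 3.

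Over all genes the count called lower was 1029 with DESeq2. With 1 library left out, 236 to 2430 genes were higher and 94 to 2152 lower, the lowest counts without control siRNA 1 and the highest without FTO siRNA 3. Copies of other pairs then numbered 8 to 57 higher and 22 to 73 lower. The cause of these differences was not tested. Where the 181 copies whose average log2 CPM was 1 or more were kept, 18 (9.95%) were higher and 35 (19.3%) lower; this setting keeps fewer copies.

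With the replicate number as a block, 736 genes were higher and 305 lower, and the sums were -2.75 for EIF3C, -0.11 for BZW1, 0.47 for FABP5, 0.49 for RAC1 and -0.13 for SRP9. Same-numbered libraries did not deviate together (r = -0.138, -0.064 and -0.248 for numbers 1, 2 and 3). The deviations were taken from means of 3 libraries, which ties these values together, so they do not settle whether the number pairs the libraries. The block changed no call of a member. Copies with 15 to 24 counts with FTO siRNA are limited by counting error.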
